A study of Mus musculus with 32 samples.

Results

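The 7 genes described here are the CC chemokines Ccl2, Ccl5, Ccl7, Ccl8, Ccl9 and Ccl20 and the CX3C chemokine fractalkine, Cx3cl1, which were taken by symbol from a count table of 54429 gene symbols. They were followed in 32 RNA-seq libraries of Veravec, a mouse lung endothelial cell (EC) line. All cells were transfected with siRNA, either a control siRNA (si-control) or an siRNA against the DNA methyltransferase Dnmt1 (si-dnmt), and were then left without cytokine or given TNF (10 ng/mL), IFN gamma (IFN, 1000 U/mL) or TNF + IFN for 16 h. The 8 groups held 4 biological replicates each, all of 1 cell line, and the labels do not say how the replicates were kept apart, so the p-values measure the spread between these cultures. The comparisons ask how each gene responded to the cytokines and whether silencing Dnmt1 changed its level or its response.

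Chemokines are small secreted proteins that bind receptors on leukocytes and guide them to a site of inflammation. On the luminal face of the endothelium they are held by heparan sulfate, where they activate integrins on rolling cells. CCL2 and CCL7 attract monocytes through CCR2, and CCL8 is a related ligand from the same gene cluster. CCL5 attracts T cells and monocytes through receptors that include CCR1, CCL9 is a CCR1 ligand of the mouse, and CCL20 is the ligand of CCR6. Fractalkine is made as a transmembrane protein with a mucin-like stalk and is shed by ADAM10 and ADAM17; it binds CX3CR1. TNF acts on many of these genes through NF-kB, and IFN gamma through factors that include IRF1.

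The libraries held 17362546 to 33500030 counts. Dnmt1, the siRNA target, ranged from 86.5 to 211 CPM (counts scaled to the library total) in the 16 si-control libraries and from 5.11 to 17.3 CPM in the 16 si-dnmt libraries, so the groups did not overlap. The endothelial list of 10 markers summed to between 3523 and 9362 CPM per library, and its sum was lower in the groups with TNF. Of the 10 leukocyte markers, Cd3e was at 0 in every library and Ptprc reached at most 3 counts, and the list's sum, which Cd68 and Lyz2 carried, was 67.7 to 232 CPM. In every group, replicates 1 and 2 stood apart from replicates 3 and 4, and values of the 2 sets are given beside many of the pooled ones. Fewer producing cells and less RNA per cell cannot be told apart in these bulk libraries.

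All 7 genes are protein coding. In GENCODE M21, Ccl2 (ENSMUSG00000035385), Ccl7 (ENSMUSG00000035373) and Ccl8 (ENSMUSG00000009185) lie on the plus strand of chromosome 11, with Ccl7 next to Ccl2 and Ccl8 next to Ccl12. Ccl5 (ENSMUSG00000035042) and Ccl9 (ENSMUSG00000019122) are neighbours on its minus strand. Ccl20 (ENSMUSG00000026166) is on chromosome 1 and Cx3cl1 (ENSMUSG00000031778) on chromosome 8, between Ccl22 and Ccl17. Ccl2 overlaps Gm17268, which had 0 to 5 counts per library.

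RefSeq (GRCm38.p6) gave a promoter window for 4 of the 7 genes, Ccl8, Ccl9, Ccl20 and Cx3cl1. In the 250 bases before the transcription start, the NF-kB consensus was found on either strand in Ccl9, 35 bases before the start, and in Ccl20, 80 bases before it. These are the pair whose group means were high with TNF and lower with TNF + IFN, and 7.25% of all 32851 windows of that length held such a match. Ccl8 and Cx3cl1, whose windows held no such match, also rose with TNF (log2 5.42 and 3.03 in si-control). So did Ccl2, Ccl5 and Ccl7, which had no window. The consensus of the ISRE, the interferon-stimulated response element (in 2.98% of windows), was in none of the 4. The windows of Ccl9 (chr11:83578637-83578886, minus strand) and Ccl20 (chr1:83116516-83116765, plus strand) are printed with the NF-kB match in capitals. That of Cx3cl1 (chr8:94771930-94772179, plus strand) is printed with each CpG, the dinucleotide that DNMT1 methylates, in capitals.
Ccl9: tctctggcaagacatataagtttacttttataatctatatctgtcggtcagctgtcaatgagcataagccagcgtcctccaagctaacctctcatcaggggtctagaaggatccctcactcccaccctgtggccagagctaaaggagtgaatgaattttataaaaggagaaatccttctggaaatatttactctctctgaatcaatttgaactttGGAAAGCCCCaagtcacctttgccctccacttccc
Ccl20: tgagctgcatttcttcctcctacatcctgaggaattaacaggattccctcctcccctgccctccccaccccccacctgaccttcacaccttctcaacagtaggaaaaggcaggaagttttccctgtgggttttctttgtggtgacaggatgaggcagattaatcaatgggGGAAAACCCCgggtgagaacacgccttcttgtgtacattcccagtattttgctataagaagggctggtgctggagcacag
Cx3cl1: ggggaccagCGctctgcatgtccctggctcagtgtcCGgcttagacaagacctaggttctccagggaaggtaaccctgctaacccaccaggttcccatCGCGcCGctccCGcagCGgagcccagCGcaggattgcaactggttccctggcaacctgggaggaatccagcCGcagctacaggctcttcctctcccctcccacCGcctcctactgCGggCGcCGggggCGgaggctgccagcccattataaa

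Cx3cl1 held 14 CpGs in this window, against 1 in Ccl8 and 2 each in Ccl9 and Ccl20 and a median of 6 over all windows. Of all windows, 70.6% held fewer than Cx3cl1. For Ccl8, Ccl9 and Ccl20 the RefSeq start is also a transcript start in GENCODE M21, while for Cx3cl1 the nearest M21 start lies 24 bases downstream, so its window and CpG count rest on the RefSeq start. Methylation was not measured in these libraries, and a match to a motif is a description of the letters only.

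The levels of the 7 genes, compared with each other per kb of exon, spanned a wide range, and Ccl2 led in each of the 8 groups. Ccl2 made up 96.7% of the summed level of the 7 genes in si-control without cytokine and 61.1% in si-control + TNF + IFN, where Ccl5 held 22.2% and Ccl7 13.9%. In si-dnmt + TNF + IFN the share of Ccl2 was 72.3%, that of Ccl5 17.2% and that of Ccl7 6.62%. The lowest of the 7 per kb was Ccl8 without cytokine, in both siRNAs, and in si-control + TNF. Ccl20 was the lowest in si-control + IFN and si-control + TNF + IFN, and Ccl9 in each si-dnmt group with cytokine. These shares rest on group means and were not tested.

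**Figure D1:**
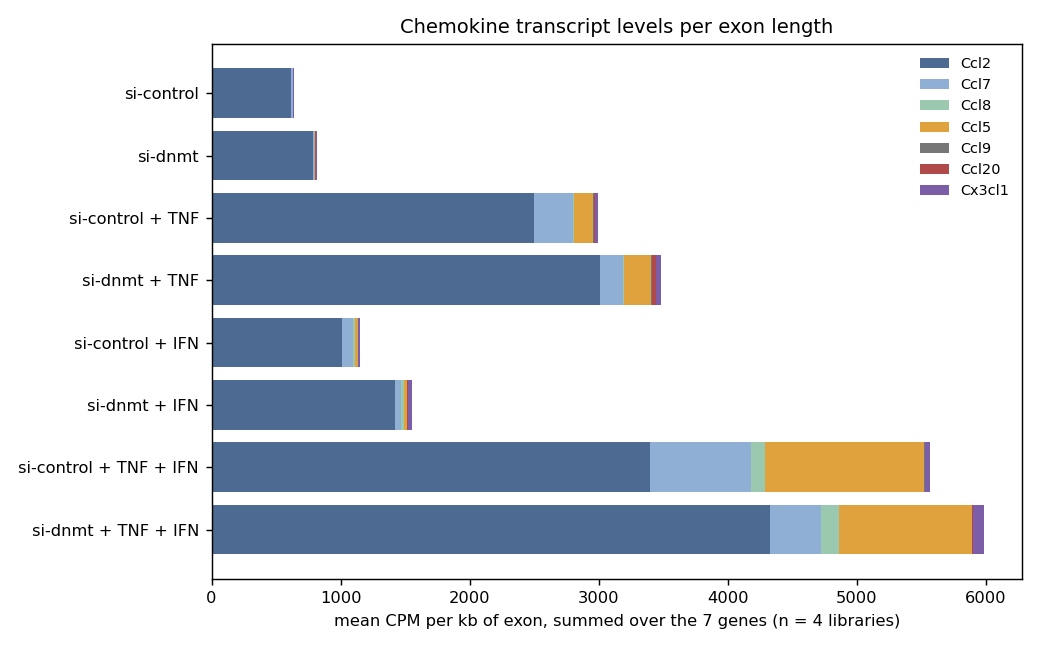
Mean CPM per kb of exon of each of the 7 genes, stacked, in the 8 groups (n = 4 libraries each). Ccl2 fills most of every bar, and Ccl5 and Ccl7 become visible with TNF and reach 22.2% and 13.9% in si-control + TNF + IFN.

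**Figure D2:**
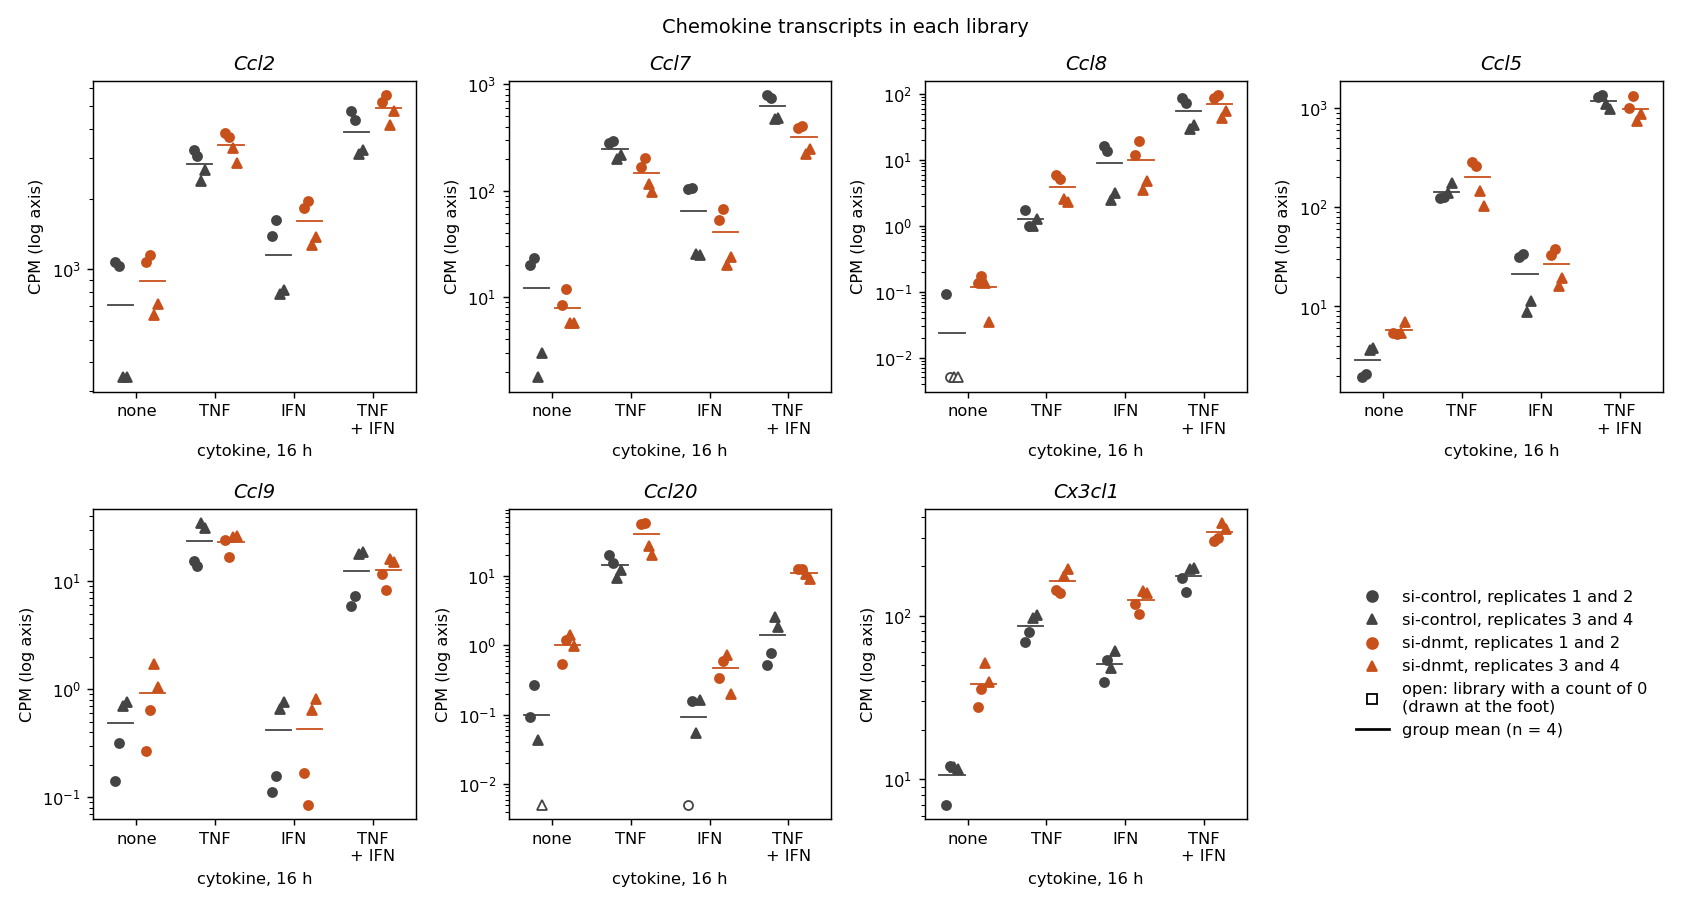
CPM of each gene in each of the 32 libraries on a log axis that differs between panels, with si-control in grey, si-dnmt in orange, circles for replicates 1 and 2, triangles for replicates 3 and 4, and a bar for the group mean. All 7 genes are higher with TNF than without cytokine under both siRNAs, Ccl20 and Ccl9 are lower with TNF + IFN than with TNF by group mean, and Cx3cl1 is higher in si-dnmt than in si-control in each state.

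TNF raised all 7 genes under both siRNAs at an adjusted p under 0.05, in fits where 16.1% of the 15254 genes tested rose in si-control and 11.5% in si-dnmt. Log2 fold changes in si-control ran from 2.02 for Ccl2 to 7.14 for Ccl20, and in si-dnmt from 1.94 for Ccl2 to 5.27 for Ccl20. With TNF + IFN against none, all 7 again rose, beside 23.5% of genes in si-control and 21.3% in si-dnmt, and here Ccl8 had the highest change, 10.89 and 9.17. IFN alone raised Ccl5, Ccl7, Ccl8 and Cx3cl1, 4 of 7, under each siRNA, beside 8.56% of genes in si-control and 6.66% in si-dnmt. Adding TNF to IFN raised all 7 under both siRNAs, where 15.6% and 12.4% of genes rose.

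Ordered by group mean, Ccl2 ran from TNF + IFN over TNF and IFN to no cytokine, and of its neighbouring groups only si-control + TNF and si-dnmt + IFN did not overlap. Ccl5 and Ccl7 had the same order of states. For Ccl5 neighbours overlapped wherever they shared a cytokine state, except without cytokine, and for Ccl7 all neighbours overlapped except the highest pair, si-control + TNF + IFN and si-dnmt + TNF + IFN. Ccl8 put IFN above TNF, and si-control + IFN overlapped si-dnmt + TNF. Ccl9 and Ccl20 were highest with TNF, and within each siRNA their IFN group overlapped no cytokine. The range of Ccl20 in si-dnmt + TNF + IFN overlapped that in si-control + TNF. For Cx3cl1 the highest was si-dnmt + TNF + IFN, apart from all others, and the ranges of si-control + TNF + IFN and si-dnmt + TNF overlapped.

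Ccl2 was abundant before any cytokine. In si-control without cytokine its 4 libraries held 1077, 1039, 344 and 346 CPM, with TNF 3238, 3062, 2399 and 2662 CPM, and with both cytokines 4749, 4362, 3117 and 3255 CPM. In si-dnmt the corresponding values were 1076, 1155, 640 and 708 CPM, then 3851, 3674, 3312 and 2862 CPM, then 5224, 5579, 4149 and 4756 CPM. All TNF libraries lay above all libraries without cytokine, while si-dnmt and si-control overlapped in each state. TNF raised Ccl2 4.05-fold in si-control (log2 2.02 ± 0.31 SE, adjusted p = 1.18e-05) and 3.83-fold in si-dnmt (1.94 ± 0.31, adjusted p = 3.53e-05). In si-control the change was 1.59 in replicates 1 and 2, which began higher, and 2.87 in replicates 3 and 4.

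With IFN alone, Ccl2 was at 1390, 1627, 782 and 818 CPM in si-control and at 1840, 1967, 1273 and 1383 CPM in si-dnmt. The log2 difference from no cytokine was 0.72 (adjusted p = 0.116) in si-control and 0.85 (adjusted p = 0.0763) in si-dnmt. With the replicate number as a block, both passed, at 0.79 (adjusted p = 0.000963) and 0.88 (adjusted p = 0.000391), in fits that called 12.7% and 10.9% of genes higher. The si-control value also passed without replicate 1 of si-control (1.00, adjusted p = 0.0329) or without replicate 2 (0.97, adjusted p = 0.0445).

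The siRNA differences of Ccl2 had log2 values of 0.35, 0.27, 0.49 and 0.35 without cytokine, with TNF, with IFN and with both. The smallest of their adjusted p-values was 0.27, with IFN, where the block gave 0.53 (adjusted p = 0.0182) beside 17.9% of genes called higher. In replicates 1 and 2 the difference with IFN was 0.32 and in replicates 3 and 4 it was 0.73. Adding IFN to TNF gave a log2 difference of 0.52 in si-dnmt (adjusted p = 0.256; with the block 0.52, adjusted p = 0.0215).

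Ccl7, the neighbour of Ccl2, followed it from a lower level, and the 2 genes correlated at a Pearson r of 0.941 over the 32 libraries, which share the cytokine states. In si-control + TNF + IFN the 4 libraries were at 793, 738, 468 and 488 CPM, and in si-dnmt + TNF + IFN at 389, 408, 223 and 250 CPM. All 4 si-dnmt libraries lay below all 4 si-control libraries. The log2 difference was -0.97 ± 0.54 (adjusted p = 0.236), and with the block it was -0.99 ± 0.29 (adjusted p = 0.00925), where 15.6% of genes were lower. It was -0.95 in replicates 1 and 2 and -1.02 in replicates 3 and 4.

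With TNF, Ccl7 was at 281, 295, 199 and 216 CPM in si-control and at 169, 202, 117 and 96.6 CPM in si-dnmt. Here the groups overlapped, and replicates 1 and 2 were higher than replicates 3 and 4 under both siRNAs. The log2 difference was -0.76 ± 0.54 (adjusted p = 0.357), and with the block -0.83 ± 0.29 (adjusted p = 0.0271), beside 16.2% of genes called lower. Within replicates 1 and 2 it was -0.63 and within replicates 3 and 4 it was -0.96.

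Without cytokine Ccl7 went both ways. Its si-control libraries were at 20.2, 23.4, 1.76 and 3.01 CPM and its si-dnmt libraries at 8.46, 12.1, 5.73 and 5.67 CPM. In replicates 1 and 2 si-dnmt was lower (log2 -1.07), in replicates 3 and 4 it was higher (1.26), and the pooled difference was -0.60 (adjusted p = 0.527). With IFN alone it was -0.65 (adjusted p = 0.438), -0.80 in replicates 1 and 2 and -0.18 in replicates 3 and 4.

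Ccl7 rose with each cytokine. TNF raised it 20.6-fold in si-control (log2 4.36 ± 0.62, adjusted p = 4.54e-06) and 18.4-fold in si-dnmt (adjusted p = 1.34e-05). Without Dnmt1 silencing the pooled value joins a change of 3.74 in replicates 1 and 2, which began at a mean of 21.8 CPM, and of 6.44 in replicates 3 and 4, which began at 2.38 CPM. In si-dnmt the sets gave 4.18 and 4.22. The interaction of siRNA and TNF was -0.17 over all 32 libraries and did not pass. It was 0.44 (adjusted p = 0.388) in replicates 1 and 2, in a fit that called 1.97% of genes. In replicates 3 and 4 it was -2.22 (adjusted p = 9.6e-07), beside 8.04% of genes. IFN raised Ccl7 5.39-fold and 5.18-fold (adjusted p = 0.00381 and 0.00678). IFN added to TNF gave a log2 difference of 1.33 in si-control (adjusted p = 0.0845) and 1.12 in si-dnmt (adjusted p = 0.172), with every TNF + IFN library above every TNF library. With the block these were 1.29 (adjusted p = 0.0008) and 1.13 (adjusted p = 0.00331), beside 17.9% and 16% of genes higher.

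Ccl8 was close to absent without cytokine and was the member with the widest range. In si-control it had 2, 0, 0 and 0 counts, all under the floor of 3 counts, and in si-dnmt 3, 4, 4 and 1 counts. IFN brought it to 16.4, 13.5, 2.51 and 3.13 CPM in si-control and to 11.9, 19.5, 3.50 and 4.73 CPM in si-dnmt. Given both cytokines it was at 87.4, 72.8, 29.6 and 33.4 CPM in si-control and at 85.9, 96.1, 42.6 and 55.0 CPM in si-dnmt. Levels with both cytokines were above those with IFN in every library, and in these 4 groups replicates 3 and 4 were below replicates 1 and 2.

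Against the 2 counts of si-control without cytokine, the ratio of summed counts, scaled to depth, was 53.5 with TNF (95% interval 14.5 to 447), 378 with IFN (104 to 3129) and 2454 with TNF + IFN (679 to 20274), and these intervals cover counting error only. The tests gave adjusted p = 0.00215, 6.8e-07 and 3e-10. Both counts lay in replicate 1, and without it the fitted log2 changes moved from 5.42, 8.24 and 10.89 to 7.74, 10.56 and 13.21, set against libraries at 0. IFN added to TNF raised Ccl8 by log2 5.47 ± 0.62 in si-control (adjusted p = 9.7e-08) and by 4.15 ± 0.56 in si-dnmt (adjusted p = 2.54e-06).

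With TNF alone Ccl8 was at 1.76, 0.985, 0.995 and 1.25 CPM in si-control and at 5.81, 5.07, 2.54 and 2.26 CPM in si-dnmt. All 4 si-dnmt libraries were above all si-control libraries, 3.13-fold in the fit (log2 1.65 ± 0.60, adjusted p = 0.0507). It passed with the block (1.60 ± 0.32, adjusted p = 0.000278), where 17.2% of genes were called higher, and without replicate 4 of si-dnmt + TNF (1.83, adjusted p = 0.0478). With IFN the siRNA difference was 0.15 (adjusted p = 0.873) and under both it was 0.32 (adjusted p = 0.709). Without cytokine, 12 counts in si-dnmt stood against 2 in si-control, a ratio of 4.92 with a 95% interval of 1.10 to 45.3 that covers counting error only. The groups overlapped, and the test over libraries gave 2.05 ± 2.02 (adjusted p = 0.535).

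Ccl5 had the second highest change with both cytokines. It rose from 1.92, 2.07, 3.65 and 3.81 CPM in si-control to 1311, 1353, 1092 and 986.8 CPM with TNF + IFN, 411-fold (log2 8.68 ± 0.48, adjusted p = 1.44e-14). In si-dnmt it rose from 5.38, 5.30, 5.39 and 7.05 CPM to 998, 1326, 745 and 879 CPM, 170-fold (7.41 ± 0.45, adjusted p = 1.5e-13). TNF alone brought it to a mean of 142 ± 23.7 CPM (SD, n = 4) in si-control cells and 201 ± 89.1 CPM after si-dnmt, and IFN alone to 21.3 ± 13.1 and 26.5 ± 10.4 CPM. IFN added to TNF raised Ccl5 8.35-fold in si-control (adjusted p = 2.47e-07) and 4.91-fold in si-dnmt (adjusted p = 2e-05), and the difference between these changes was log2 -0.77 ± 0.48 (adjusted p = 1). It was -1.33 (adjusted p = 2.2e-05) in replicates 1 and 2, where 1.67% of genes and 3 members were called, and -0.03 (adjusted p = 0.988) in replicates 3 and 4.

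Without cytokine every si-dnmt library had more Ccl5 than every si-control library, 2.01-fold (log2 1.01 ± 0.39, adjusted p = 0.0744). With the block the difference passed (0.99 ± 0.37, adjusted p = 0.0394), beside 16.6% of genes called higher, and it was 1.43 in replicates 1 and 2 and 0.74 in replicates 3 and 4. With TNF the sets went opposite ways, at 1.13 and -0.33, and the pooled value was 0.50 (adjusted p = 0.33). With IFN the difference was 0.31 (adjusted p = 0.576) and under both it was -0.26 (adjusted p = 0.658).

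Ccl9 rose with TNF, and its differences with IFN alone did not pass the test. In si-control it went from 0.141, 0.318, 0.703 and 0.762 CPM to 15.3, 13.9, 34.6 and 31.2 CPM with TNF, 48-fold (log2 5.59 ± 0.58, adjusted p = 2.19e-08). In si-dnmt it went from 0.267, 0.642, 1.71 and 1.04 CPM to 24.1, 16.7, 25.5 and 26.2 CPM, 24.5-fold (4.61 ± 0.53, adjusted p = 2.32e-07). With IFN alone it was at 0.112 to 0.756 CPM in si-control and 0.0841 to 0.808 CPM in si-dnmt, within reach of the libraries without cytokine. The log2 differences for IFN were -0.22 (adjusted p = 0.902) and -1.03 (adjusted p = 0.398).

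Under both cytokines Ccl9 was at 5.91, 7.24, 17.6 and 18.5 CPM in si-control and at 11.7, 8.34, 16.1 and 14.9 CPM in si-dnmt. Set against TNF alone, the log2 difference was -0.95 ± 0.44 (adjusted p = 0.128) in si-control and -0.86 ± 0.44 (adjusted p = 0.196) in si-dnmt. With the block both were lower, at -0.98 (adjusted p = 0.000389) and -0.91 (adjusted p = 0.000961), in fits that called 16% and 13.7% of genes lower. In replicates 1 and 2 the values were -1.15 and -1.03, and in replicates 3 and 4 they were -0.86 and -0.74. The siRNA differences of Ccl9 were 0.94, -0.04, 0.12 and 0.06 over the 4 states (adjusted p = 0.328, 0.968, 0.929 and 0.953). In all 8 groups its replicates 3 and 4 were above replicates 1 and 2, the reverse of Ccl2 and Ccl7.

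Ccl20 rose with TNF from a few counts per library and fell when IFN was added to TNF. In si-control its counts were 2, 5, 1 and 0 without cytokine, and TNF brought it to 20.2, 15.2, 9.21 and 12.1 CPM. In si-dnmt it went from 0.534, 1.198, 1.40 and 0.973 CPM to 56.2, 58.0, 26.6 and 19.7 CPM with TNF. The fitted change was log2 7.14 ± 0.61 in si-control (adjusted p = 6.48e-10) and 5.27 ± 0.46 in si-dnmt (adjusted p = 1.53e-09). These were the highest values of the 7, but in si-dnmt Ccl5 (5.12 ± 0.41) and Ccl8 (5.02 ± 0.84) lay within its SE. In si-control both Ccl20 and Ccl8 started near the floor, so that without replicate 2 of si-control Ccl20 was at 8.12 and without replicate 1 Ccl8 was at 7.74.

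Under both cytokines Ccl20 was at 0.529, 0.781, 2.53 and 1.85 CPM in si-control and at 12.5, 12.5, 10.6 and 8.99 CPM in si-dnmt. Under each siRNA, all 4 libraries lay below all 4 with TNF alone. The fall was 10.1-fold in si-control (log2 -3.34 ± 0.43, adjusted p = 1.17e-06), -4.76 in replicates 1 and 2 and -2.29 in replicates 3 and 4. In si-dnmt it was 3.60-fold (-1.85 ± 0.38, adjusted p = 0.000716), with -2.19 and -1.25 in the sets. It was the 1 member of 7 called lower under each siRNA in these comparisons, beside 8.44% of genes in si-control and 6.59% in si-dnmt. Ccl5, Ccl8 and Cx3cl1 were the 3 called higher, beside 12.6% and 10.9%. The smaller fall in si-dnmt differed from that in si-control by log2 1.49 ± 0.56, which had an unadjusted p under 0.05 but an adjusted p of 1, in a test that called 0.0328% of genes. In replicates 1 and 2 that difference was 2.57 and in replicates 3 and 4 it was 1.04.

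**Figure D3:**
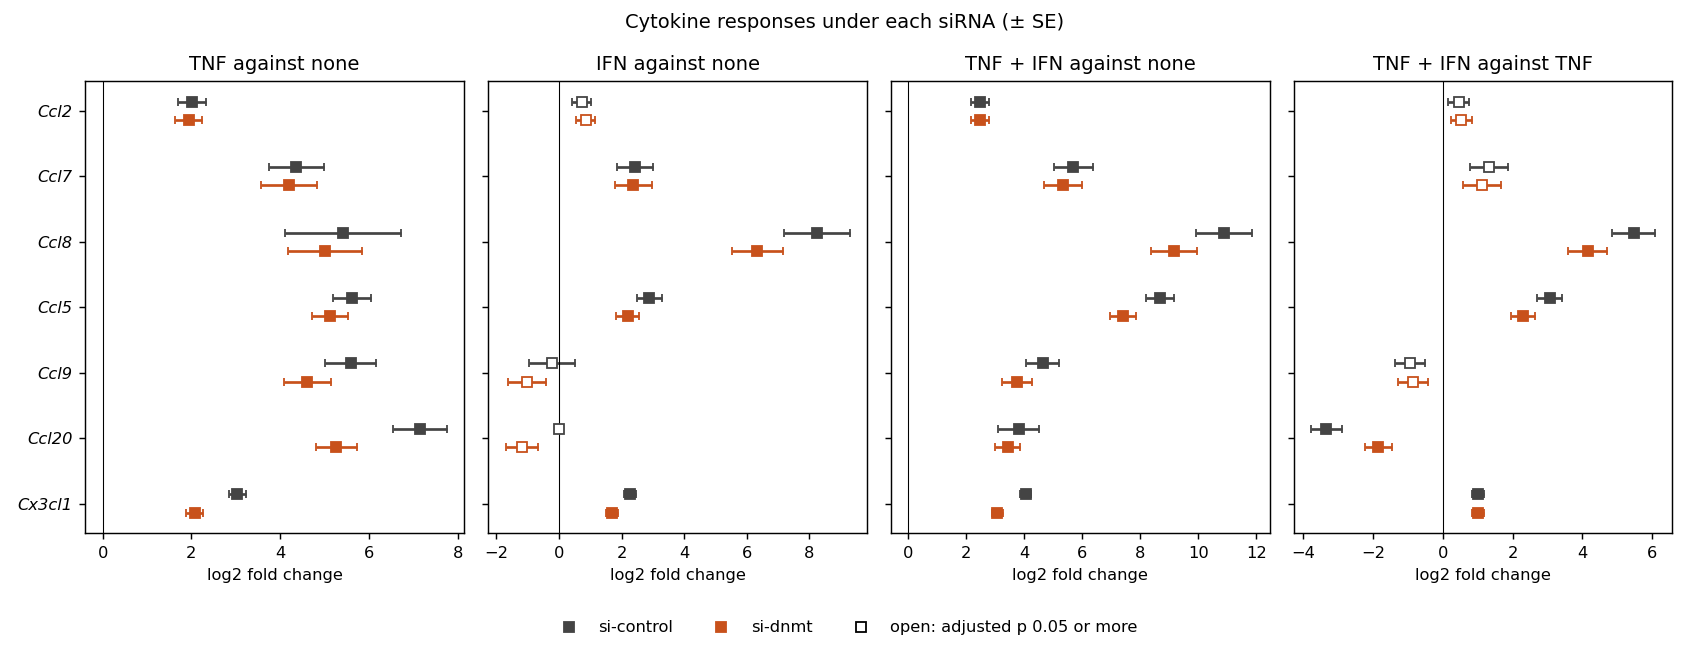
Log2 fold change (± SE) of each gene with TNF, IFN and TNF + IFN against no cytokine and with TNF + IFN against TNF, in si-control (grey) and si-dnmt (orange), open where the adjusted p was 0.05 or more. In the last panel Ccl20 is at -3.34 and -1.85 while Ccl5 and Ccl8 are above 2, and for Ccl20 with IFN in si-control, at 0, no SE was drawn.

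The siRNA difference of Ccl20 was called without cytokine, with TNF and with TNF + IFN. Without cytokine si-dnmt was 10.4-fold higher (log2 3.37 ± 0.70, adjusted p = 0.00104) and all its libraries lay above those of si-control. In si-control 3 of 4 libraries were at or under the floor of 3 counts, and without replicate 2, which held 5 of the 8 counts, the log2 difference was 4.35 (adjusted p = 0.000893). With TNF it was 2.83-fold higher (log2 1.5 ± 0.37, adjusted p = 0.00478), although the groups overlapped, since replicate 4 of si-dnmt was below replicate 1 of si-control. With TNF + IFN it was 7.96-fold higher (2.99 ± 0.43, adjusted p = 1.49e-05). In replicates 1 and 2 these differences were 2.29, 1.68 and 4.25, and in replicates 3 and 4 they were 5.42, 1.12 and 2.17. With IFN alone 43 counts in si-dnmt stood against 7 in si-control, a ratio of 4.62 with a 95% interval of 2.06 to 12.2 for counting error alone. There the fitted difference was 2.18 ± 0.83 (adjusted p = 0.0615), and it passed without replicate 4 of si-dnmt + IFN (2.498, adjusted p = 0.0398).

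Cx3cl1 was higher in si-dnmt in all 4 states, with no overlap between the groups in any of them. Without cytokine si-control was at 6.94, 11.98, 11.9 and 11.5 CPM and si-dnmt at 27.7, 35.6, 51.0 and 39.4 CPM. With IFN si-control was at 39.3, 53.7, 48.1 and 60.9 CPM and si-dnmt at 117, 102, 141 and 138 CPM. The level in si-dnmt was 3.63-fold higher without cytokine (log2 1.86 ± 0.19, adjusted p = 7.82e-08) and 2.46-fold higher with IFN (1.30 ± 0.18, adjusted p = 8.76e-06).

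With TNF Cx3cl1 was at 69.4, 79.8, 96.7 and 101 CPM in si-control and at 143, 137, 175 and 193 CPM in si-dnmt. Under both cytokines it was at 170, 140, 192 and 196 CPM in si-control and at 287, 299, 369 and 340 CPM in si-dnmt. The differences were 1.87-fold (log2 0.90 ± 0.18, adjusted p = 0.000586) and 1.86-fold (0.89 ± 0.18, adjusted p = 0.000707). Over the 4 states in the order given, replicates 1 and 2 gave differences of 1.76, 1.22, 0.91 and 0.92. Replicates 3 and 4 gave 1.95, 1.35, 0.90 and 0.87. In each of the 4 states the SE of Cx3cl1 was the smallest of the 7.

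**Figure D4:**
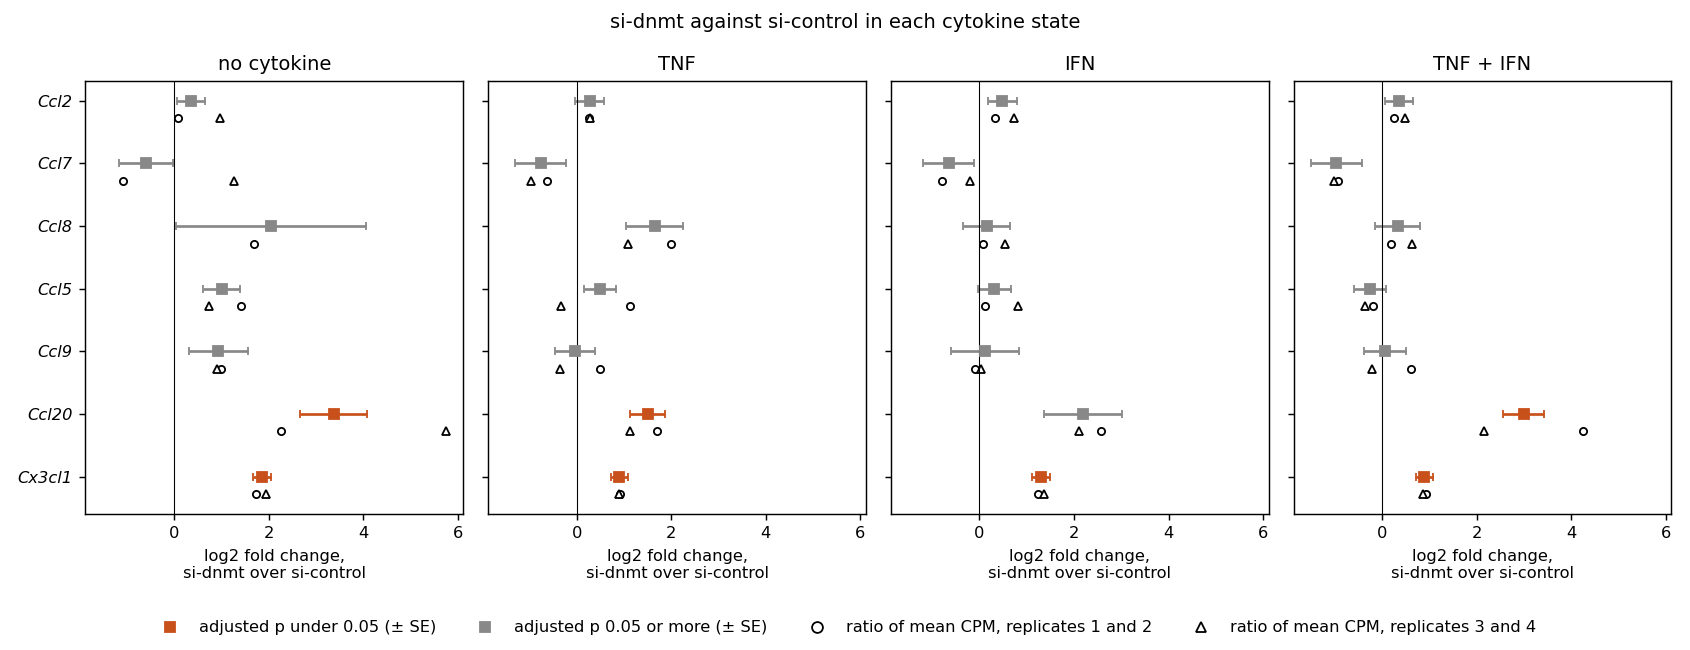
Log2 fold change of si-dnmt over si-control for each gene in the 4 cytokine states: squares with SE from the fit over 32 libraries, orange where the adjusted p was under 0.05, with the ratio of mean CPM in replicates 1 and 2 (circle) and in replicates 3 and 4 (triangle) under them. Cx3cl1 is orange in all 4 panels and Ccl20 in 3, Ccl7 without cytokine has its sets on opposite sides of 0, and the triangle of Ccl8 without cytokine is missing because si-control had 0 counts there.

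Of the 7 members, 2 were called higher in si-dnmt without cytokine, 2 under TNF, 1 under IFN and 2 under both, while 9.58%, 10.4%, 10.8% and 8.97% of all genes tested were called higher. The median log2 difference of the 7 was 1.01, 0.50, 0.31 and 0.32 over these states, against -0.005, 0.004, -0.007 and 0.002 over all genes tested.

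For Cx3cl1, the 2 cytokines together gave more than either alone, but less than the sum of the log2 changes. In si-control TNF gave 3.03, IFN 2.25 and TNF + IFN 4.04, and the departure from the sum was -1.25 ± 0.26 (adjusted p = 0.00785), in a test that called 1.06% of genes and this 1 member. Ccl20 departed further, by -3.34 ± 1.35, at an adjusted p of 0.352 by edgeR and of 0.0279 by DESeq2 (-3.32), which called 1.92% of genes. However, its summed counts in si-control were 8 without cytokine and 7 with IFN, so a fall with IFN alone could not be seen. The fitted IFN change was 0.0003, and the departure therefore repeats the fall from TNF to TNF + IFN. For Cx3cl1 in si-dnmt the changes were 2.07, 1.69 and 3.07, and the departure was -0.69 ± 0.25 (adjusted p = 0.466, in a test that called 0.354% of genes). With the block the latter passed (-0.70 ± 0.16, adjusted p = 0.0129) beside 1.82% of genes. For Ccl5 the sum of the single changes was closer, with departures of 0.18 ± 0.52 and 0.10 ± 0.50 (adjusted p = 0.977 and 1). Within the sets, however, Ccl5 departed by -0.65 in replicates 1 and 2 under each siRNA. In replicates 3 and 4 it departed by 1.29 in si-control (adjusted p = 0.00433, beside 4.35% of genes called) and by 1.16 in si-dnmt.

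Whether silencing Dnmt1 changed a cytokine response was tested by the interaction of siRNA and cytokine. By edgeR, 0 of 7 members passed for TNF, IFN or TNF + IFN, where 0.0328%, 0.0459% and 0.531% of genes were called. The unadjusted p was under 0.05 for 2, 1 and 2 members, a threshold at which all genes were not counted. Cx3cl1 came closest, since its responses on the log2 scale were smaller in si-dnmt. They differed by -0.96 ± 0.26 for TNF (adjusted p = 0.235) and by -0.97 ± 0.26 for TNF + IFN (adjusted p = 0.0792). With the block Cx3cl1 passed both, at -0.95 (adjusted p = 0.00462) and -0.96 (adjusted p = 0.000679), beside 0.892% and 4.18% of genes. DESeq2 also called Cx3cl1 for TNF (adjusted p = 0.0498) and for TNF + IFN (adjusted p = 0.0201), beside 0.347% and 1.34% of genes, and no member for IFN. Without replicate 1 of si-dnmt, the TNF + IFN value was -1.10 (adjusted p = 0.0377) by edgeR. Mean Cx3cl1 in si-control was 10.6 CPM without cytokine, 86.7 CPM with TNF and 174 CPM with TNF + IFN. In si-dnmt it was 38.4, 162 and 324 CPM, so the smaller log2 responses began from a higher level. For Ccl20 the interaction with TNF was -1.88 ± 0.84 (adjusted p = 0.679), with -0.61 in replicates 1 and 2 and -4.30 (adjusted p = 0.00871) in replicates 3 and 4. Replicates 3 and 4 of si-control without cytokine had 1 and 0 counts of Ccl20, so the -4.30 rests on a reference at the floor. In replicates 3 and 4 alone, 6 of 7 members passed for TNF, beside 8.04% of genes. These were all but Ccl8, each with a smaller log2 response in si-dnmt. In replicates 1 and 2 none passed, beside 1.97% of genes. The spread in each set was estimated from 2 libraries per group.

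Other genes of the pathway were counted by list. Of 15 other CC and XC ligands, 5 passed the low-count filter. With TNF + IFN 1 of them was higher in si-dnmt, beside 8.97% of all genes tested. This was the skin-homing ligand Ccl27a, at a low level (0.153 to 0.567 CPM, log2 1.80, adjusted p = 0.0283). Of 12 receptors 1 was tested, Ccr10, at 1.38 to 2.29 CPM by group mean, and of 4 atypical receptors Ccrl2, which binds chemerin and rose from 2.11 CPM in si-control to 190 CPM with TNF + IFN (log2 6.50, adjusted p = 4.97e-13).

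All 6 proteases that release or trim these chemokines were tested. Mmp2, a gelatinase that can trim CCL7, was lower in si-dnmt without cytokine (190 against 80.8 CPM, log2 -1.24, adjusted p = 1.5e-06) and with TNF + IFN (-1.43). Rhbdf2, which carries ADAM17 to the cell surface, was higher in both (0.48 and 0.52). Among 8 genes of heparan sulfate, 3 were higher in si-dnmt without cytokine (9.58% of all genes were), the syndecans Sdc4 (0.70) and Sdc3 (0.31) and the chain polymerase Ext2 (0.43), and under both cytokines the lowest adjusted p of the 8 was 0.0698, for Ext2.

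Of the 12 genes of the TNF arm, 11 were higher and 1 lower with TNF in si-control, where 16.1% and 14.6% of all genes were. In si-dnmt 3 were higher without cytokine, beside 9.58% of all genes, of which Tnfaip3, the A20 inhibitor of NF-kB, had a log2 difference of 1.22 and Relb, an NF-kB subunit, 0.69. With TNF + IFN 2 were higher and 2 lower, beside 8.97% and 8.72%, with Tnfaip3 at 0.72 and the adaptor Traf1 and the receptor Tnfrsf1b at -0.53 and -0.41. Of the 9 genes of the IFN gamma arm, 6 were higher and 1 lower with IFN in si-control, beside 8.56% and 5.92% of all genes. In si-dnmt 4 were higher without cytokine, beside 9.58% of all genes. Among the 4 were the inhibitor Socs1 (1.01), the kinase Jak2 (0.64) and the transcription factor Irf1 (0.51). Under both cytokines the lowest adjusted p of the 9 was 0.0659, for Socs1. Of 4 mRNA decay factors, Zfp36 was higher without cytokine (0.52) and the RNase Zc3h12a with TNF + IFN (0.99), beside 9.58% and 8.97% of all genes.

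Among markers of other cells, the summed fibroblast and mural list was 9.70 to 28.8 CPM in si-control and 42.9 to 189 CPM in si-dnmt without cytokine, where Cx3cl1 and Ccl20 were also higher in si-dnmt. Acta2, a smooth muscle actin, carried this sum (log2 2.83, adjusted p = 0.000434), and of the 8 genes 5 were tested. Its part in the chemokine values was not tested. The list also did not overlap with TNF, at 39.3 to 66.7 CPM against 97.1 to 150 CPM in si-dnmt, or with IFN, at 22.1 to 71.6 CPM against 86.2 to 233 CPM, and Cx3cl1 was called in both states and Ccl20 with TNF. With TNF + IFN the list summed to 53.5 to 88.3 CPM in si-control and 83.3 to 143 CPM in si-dnmt. These ranges overlapped, with both ends higher in si-dnmt. Cx3cl1 (log2 0.89) and Ccl20 (2.99) were called higher in si-dnmt with TNF + IFN. Whether the list bears on the chemokine values was not tested in any state. The leukocyte list went the other way, at 191 to 227 CPM in si-control and 140 to 187 CPM in si-dnmt without cytokine, and 3 of its 10 genes were tested.

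Over the 32 libraries, the genes most like each member by Pearson r were described without a test, since the libraries share the cytokine states. For Ccl2 they were Birc3 (0.975), Plscr1 (0.965) and Tlr2 (0.964), and for Ccl7 Bid (0.969), Tlr2 (0.967) and Birc2 (0.955). For Ccl5 they were Ripk2 (0.976), Ch25h (0.973) and Heatr9 (0.970), of which Heatr9 is its neighbour on the chromosome. Ccl8 was closest to Il15ra (0.983), its neighbour Ccl12 (0.983) and Il15 (0.981). Ccl12, a CCR2 ligand of the mouse, went from 0.0229 CPM in si-control to 50.02 CPM with TNF + IFN, and was at 96.8 CPM in si-dnmt + TNF + IFN. Ccl9 was closest to Pwp1 (0.960), Mmp9 (0.951) and Spib (0.948), and Ccl20 to Sertad4 (0.934), Bmpr1b (0.930) and Plekha3 (0.927). Cx3cl1 was closest to Zmynd15 (0.964), Cxcl16 (0.955) and Slc2a6 (0.955), and Cxcl16 is the other chemokine made with a transmembrane stalk. Between members r was highest for Ccl2 and Ccl7, was 0.856 for Ccl9 and Ccl20, and was lowest for Ccl8 and Ccl20 at 0.277.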

How the data were processed

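Veravec ECs were sequenced as bulk RNA. The deposited whole-number counts per gene were made by the authors, and the submitters' processing notes name cutadapt 4.9, FastQC 0.12.1, MultiQC 1.27.1, featureCounts and DESeq2. Aligner, genome build, annotation and strand setting were not given in the sources used here, and reads of overlapping genes or of related chemokine genes could be assigned either way. The per-library files and the merged table differed in 0 cells.

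Counts were fitted with edgeR 4.0.16 (R 4.3.3) as 8 group means over 32 libraries, with TMM scaling, filterByExpr at a minimum count of 10 (15254 genes of 54532 identifiers kept, all 7 members among them) and two-sided quasi-likelihood F tests. Calls were made at an adjusted p under 0.05 by Benjamini and Hochberg over all genes tested, in 22 contrasts. CPM used TMM-scaled totals, which ranged from 17362546 to 33500030 before scaling. A library with 3 counts or fewer was taken as at the floor. SEs were derived from the log2 fold change and its F value. Exon lengths came from GENCODE M21 and promoter windows from RefSeq. The script was tested on simulated data.

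Members and gene lists were chosen with earlier results of these data known. All members are named, with Dnmt1 as the check of the labels, the 3 genes most correlated with each member, and at most 4 genes of each list, taken by the size of their called siRNA difference without cytokine or with TNF + IFN, or by level where none was called. Ccl12 is named as a correlate. An item this rule would name is not reported here.

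Replicate numbers were checked for pairing. Over 112 pairs of libraries with the same number in different groups, deviations from the group means correlated at 0.297 to 0.617 (median 0.415), all above 0.1. Pairs of different numbers within replicates 1 and 2 or within 3 and 4 correlated at 0.209 to 0.564 (median 0.409). Pairs across these sets correlated at -0.59 to -0.239. Of 32 libraries, 24 were closest to their own number. The values thus show the split into sets, and pairing by number within a set is less clear. The fit with the replicate number as a block, which also takes up that split, is given where it changes a call. Replicates differed from each other beyond counting noise in each group. Alternatives were DESeq2 size factors, no filter, DESeq2 1.42.0, the block, each replicate set alone, the 8 libraries of a state alone and leaving out each library. Interactions of siRNA with the second cytokine were added after the data were seen.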

Additional observations from a re-analysis of the deposited data

Results flagged for a closer look

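Of 56 groups of 4 libraries (7 genes in 8 groups), 3 held a library far from the other 3 by Dixon's ratio. Chance alone flags about 1 in 20 groups of normally distributed values. That rate need not hold here, with counts near the floor and replicates 1 and 2 apart from replicates 3 and 4. Ccl5 in si-dnmt replicate 4 was at 7.05 CPM, where the other 3 libraries were at 5.30 to 5.39 CPM. Ccl8 in si-control replicate 1 was at 0.0938 CPM, which is 2 counts, where the others had 0. Cx3cl1 in si-control replicate 1 was at 6.94 CPM, where the others were at 11.5 to 11.98 CPM.

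The response of Cx3cl1 to TNF differed with and without IFN in si-control, with an interaction of -1.25 on the log2 scale (adjusted p = 0.00785).

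For Ccl7 without cytokine, replicates 1 and 2 went from 21.8 CPM in si-control to 10.3 CPM in si-dnmt and replicates 3 and 4 from 2.38 to 5.70 CPM, so the log2 ratios of -1.09 and 1.26 differed by 2.34. For Ccl9 with TNF the ratios were 0.48 and -0.35 (a difference of -0.83), and with TNF + IFN they were 0.61 and -0.22 (also -0.83). In these 3 cases every library of a set lay on its own side, and the difference between the sets was not tested.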

How the results depend on the processing

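Of 154 member values, none crossed the threshold with DESeq2 size factors or with no filter. With DESeq2 size factors 2 turned direction, the largest at 0.01 in size, and with no filter 0 did. Leaving out 1 library changed the call of 5 of 1792 values, all by passing the threshold, and turned 121, of which 0 were called; no alternative lost a call. The block added 15 calls, DESeq2 6 and the 8 libraries of a state alone 3 of 26; the block changed no other call. The sets of 2 replicates added 27 and 44 calls, and their spread was estimated from fewer libraries. Direction turned for 17 values in replicates 1 and 2 alone and for 8 in replicates 3 and 4 alone. Of these, 1 in each set passed the threshold, Ccl7 without cytokine in replicates 3 and 4 (1.26) and Ccl5 in the TNF by IFN term of si-dnmt in replicates 1 and 2 (-0.65); the cause was not tested.

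The share of all genes called rose in the same settings. For the 4 comparisons of si-dnmt with si-control it was 17.7% to 20.3% as reported, 19.8% to 22.4% with DESeq2, 30.8% to 34.5% with the block, and 23.8% to 26.1% and 36.2% to 38.5% in the sets. For the 8 interaction terms it was at most 1.06% as reported, 1.92% with DESeq2, 4.23% with the block, and 10.6% and 11.8% in the sets. The larger moves in the numbers of members called are listed here, and moves smaller in proportion are left out. Among those left out, 2 became 3 without cytokine for si-dnmt against si-control, with DESeq2 and with the block. For TNF + IFN against TNF in si-control, 4 became 6 with the block. For si-dnmt against si-control without cytokine, 2 became 4 in replicates 1 and 2 alone and 6 in replicates 3 and 4 alone. With TNF, 2 became 4 with the replicate block, 5 and 6 in the sets. With IFN, 1 became 2 with DESeq2 and with the block, 4 in each set, and 1 to 2 when leaving out a library (2 without si-dnmt + IFN replicate 4). With TNF + IFN, 2 became 4 and 6 in the sets. For IFN against none in si-dnmt, 4 became 7 in replicates 3 and 4, beside 16.1% of genes. For TNF + IFN against TNF, 4 became 7 in both sets of si-control, and 7 with the block and in both sets of si-dnmt, beside 25.1% to 36.4% of genes.

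For siRNA by TNF, 0 became 1 with DESeq2, 1 with the block and 6 in replicates 3 and 4, where 8.04% of genes were called against 0.0328% as reported. For siRNA by IFN, 0 became 1 in each set. For siRNA by TNF + IFN, 0 became 1 with DESeq2 and with the block, 2 and 5 in the sets, and 0 to 1 when leaving out a library (1 without si-dnmt replicate 1). For TNF by IFN, 1 became 2 with DESeq2, 2 and 4 in the sets of si-control, and 0 became 1 with the block, 3 and 3 in the sets of si-dnmt. For siRNA by IFN added to TNF, 0 became 3 in replicates 1 and 2, and for siRNA by TNF added to IFN, 0 became 2 in replicates 3 and 4. Depth limited Ccl8 and Ccl20 in si-control without cytokine, at 0 to 5 counts per library, Ccl20 also with IFN (0 to 3), and Ccl9 in replicates 1 and 2 of si-control without TNF (2 to 6). In si-dnmt it also limited Ccl8 without cytokine (1 to 4) and Ccl9 in replicates 1 and 2 with IFN (3 and 2).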
